A study of Oryctolagus cuniculus with 12 samples.

Results

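The mitochondrial ADP/ATP carrier SLC25A4 and the channels VDAC1, VDAC2 and VDAC3 were followed in the ventricles of fetal rabbit hearts. They were the probes whose current gene symbol is SLC25A4, VDAC1, VDAC2 or VDAC3, 13 of the 43603 probes in the table and 4 of the 591 genes with a name. SLC25A4 and VDAC1 had 5 probes each, VDAC2 had 2 and VDAC3 had 1. The 5 SLC25A4 probes stood under the symbol SLC25A5 in the array annotation, and the transcript accession given there now belongs to SLC25A4. Probe sequences were not used here, so whether these probes also bind the transcript of SLC25A5, a closely related carrier, was not tested.

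The 12 arrays held 6 ventricle samples from fetuses labelled IUGR, for intrauterine growth restriction (poor growth of the fetus in the womb), and 6 from control fetuses, numbered as 6 pairs. Their titles use the word treatment for IUGR. The sources used here do not give the means by which growth was restricted, the strain, the gestational age or what links the hearts of a pair. RNA of each sample was labelled with Cy3 dye and measured on 1 array of rabbit transcripts. In whole ventricle, fewer cells of a type and less RNA per cell cannot be told apart.

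ATP made in the mitochondrial matrix leaves across the inner membrane through the ADP/ATP carrier, which takes in ADP in exchange. SLC25A4 is the isoform typical of heart and skeletal muscle. VDAC proteins form the pores of the outer membrane through which ATP, ADP, phosphate and substrates pass, and in muscle the creatine kinases carry the energy onward to the filaments.

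The values are log2 probe signals. Each difference is IUGR minus control on that log2 scale, with its mean ± SD over n = 6 pairs. The arrays had been brought to a common distribution, so a difference is relative to the other probes. Across probes, which are no independent replicates, the correlation between arrays was 0.957 to 0.978. Heart muscle was seen in the named markers: of 13 cardiomyocyte markers 3 were measured, and MYH6, the alpha myosin heavy chain, RYR2, the calcium release channel, and CKM, the muscle creatine kinase, stood at the 99.2, 97.4 and 99.8 percentiles of all probe means. Their mean level ran from 14.39 to 14.60 in IUGR and from 14.31 to 14.62 in control arrays.

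The question was whether the transcripts for nucleotide exchange across the mitochondrial membranes differ in level between IUGR and control ventricles. The member probes stood at the 90.2 to 99.8 percentile of all probe means. No member probe differed between the groups beyond the spread of the pairs. The means of all 13 member probes were higher in IUGR, by 0.01 to 0.15, where 52.0% of all probes were higher. Probes of the same gene measure the same transcript, so the 13 probes are not 13 separate observations. With limma's test over all 43603 probes, 0 of the 13 probes passed an adjusted p of 0.05 (adjusted p from 0.982 to 0.997), as did 0% of all probes. At an unadjusted p under 0.05 there were 0 of the 13, against 3.58% of all probes, and under 0.01 also 0, against 0.514%. The IUGR and control arrays overlapped for every member probe, and 0.0505% of all probes did not overlap. None of the 13 had the same sign in 6 of 6 pairs, which 2.25% of all probes had.

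**Figure D1:**
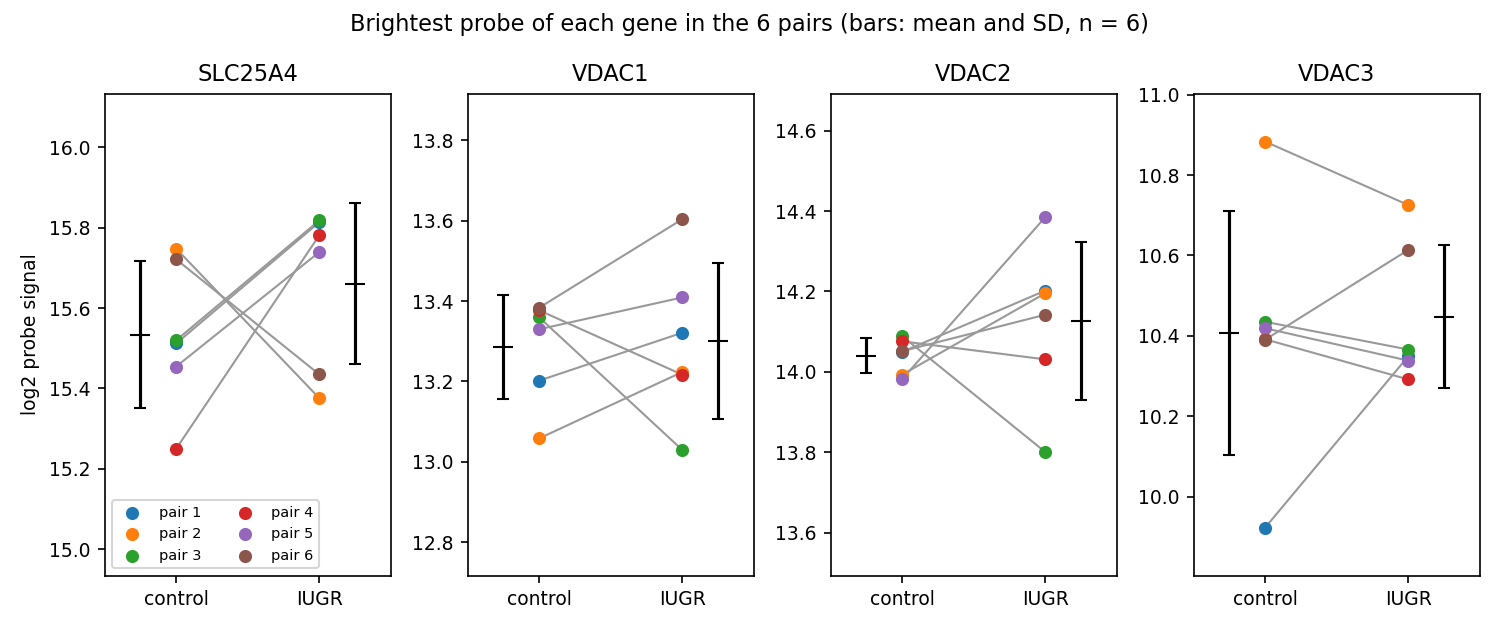
Log2 signal of the brightest probe of each gene in the control (left) and IUGR (right) array of each pair, joined by a line and coloured by pair. Black bars give the mean and SD over n = 6 arrays, and each panel spans 1.2 log2 units on its own axis. The groups overlap in every panel, and SLC25A4 runs upward in 4 pairs and downward in pairs 2 and 6.

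SLC25A4 lay at the very top of the signal scale. Its brightest probe, A_04_P000472, ran from 15.38 to 15.82 with a median of 15.76 in the 6 IUGR arrays. In the 6 control arrays it ran from 15.25 to 15.75 with a median of 15.52. The groups overlapped, with IUGR replicates 2 and 6 low in their group and control replicates 2 and 6 high in theirs. The mean difference was 0.13 ± 0.37, a 1.09-fold difference, with a 95% interval from -0.24 to 0.49 in limma. In fold terms the interval runs from 0.849 to 1.40. The exact two-sided test over the 64 sign changes of the 6 pairs gave p = 0.469, and its smallest possible p is 0.03125.

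The other SLC25A4 probes, apart from A_04_P000475, gave differences of the same size. Probes A_04_P000471, A_04_P000473 and A_04_P000474 differed by 0.15 ± 0.30, 0.15 ± 0.33 and 0.15 ± 0.37. Probe A_04_P000475 differed by 0.01 ± 0.28, and its sign turned without pair 1 (-0.016), pair 3 (-0.020), pair 4 (-0.059) or pair 5 (-0.0019). The exact p of the 5 probes ran from 0.25 to 0.938. All 5 were higher in IUGR in pairs 1, 3, 4 and 5 and lower in pairs 2 and 6.

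Averaged over the 5 probes, SLC25A4 was higher in IUGR by 0.32 in pair 1, by 0.30 in pair 3, by 0.40 in pair 4 and by 0.29 in pair 5. In pair 2 the difference was -0.29 and in pair 6 it was -0.30. Both directions were thus of about the same size, and the mean of 0.12 ± 0.32 averages pairs that moved in opposite ways. The 5-probe mean stood at 15.76 in control replicate 2 and at 15.76 in control replicate 6, against 15.36 to 15.44 in the other 4 control arrays. In IUGR replicates 2 and 6 it stood at 15.47 and 15.46, against 15.68 to 15.75 in the other 4 IUGR arrays.

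**Figure D2:**
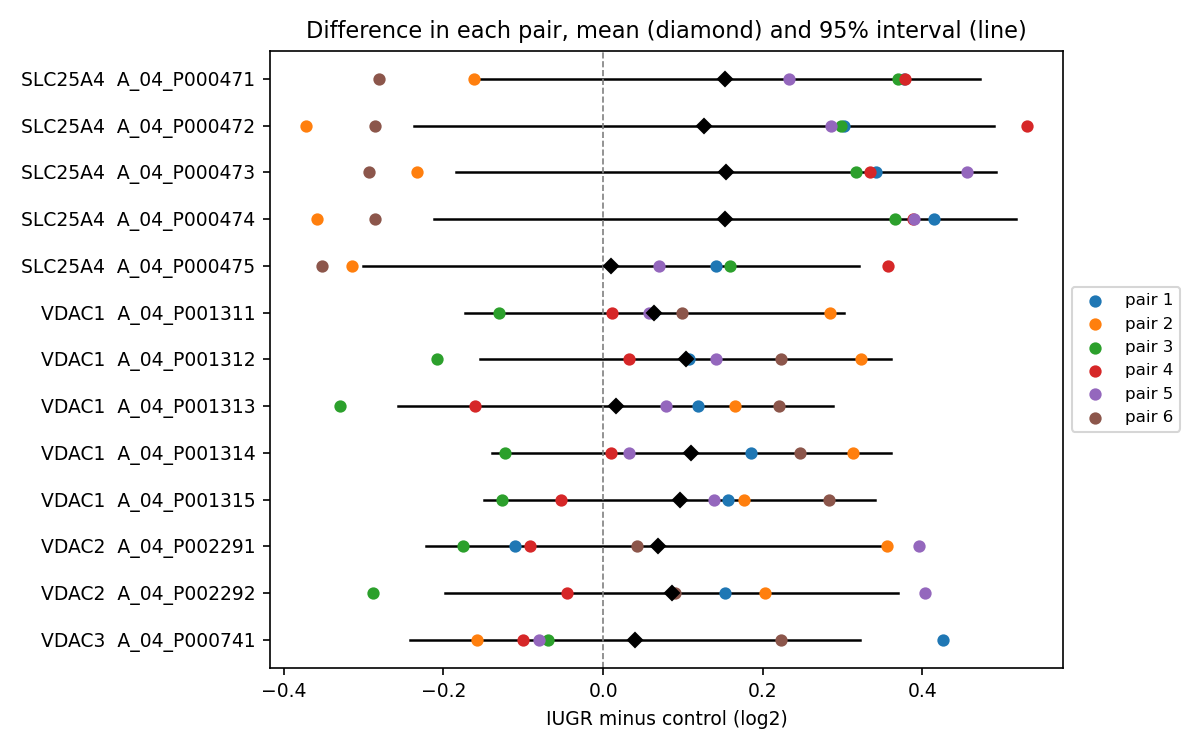
IUGR minus control difference (log2) of each of the 13 member probes, 1 row per probe, with coloured points for the 6 pairs, a diamond for the mean and a line for limma's 95% interval. Every interval crosses 0, and the SLC25A4 points fall into 4 pairs above 0 and pairs 2 and 6 below it.

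The place of SLC25A4 on the scale is given beside these values. In each array its 5 probes ranked between position 1 and position 243 from the brightest of the 43603 probes. The brightest position lay at 15.83 in the median array, the 100th position at 15.60, the 200th at 15.37 and the 300th at 15.08. In control replicate 2 a SLC25A4 probe held the brightest position, at 15.83. Saturation flags were not used here, and no SLC25A4 probe lay below this stretch, so no dimmer probe of the gene was at hand for comparison. Whether the scanner limit touched these values was not tested.

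**Figure D3:**
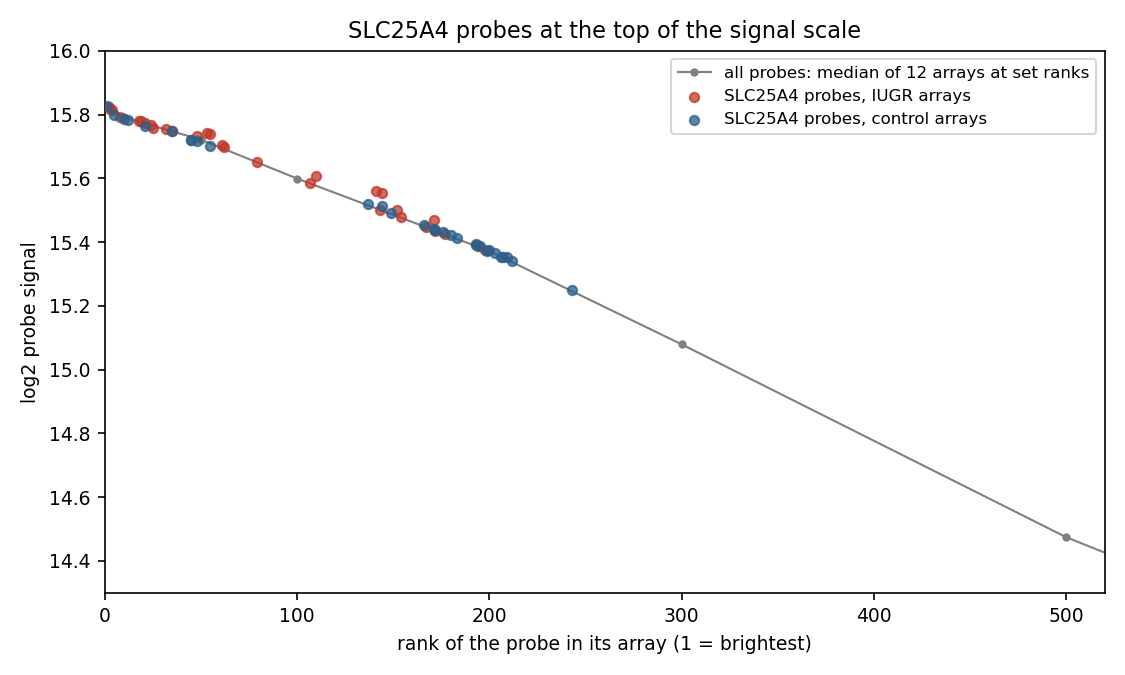
Log2 signal (y axis) against rank in the array (x axis, 1 is the brightest) for the 5 SLC25A4 probes in the 6 IUGR (red) and 6 control (blue) arrays, with the grey line for the median of all arrays at set ranks. The SLC25A4 points occupy positions 1 to 243, between 15.25 and 15.83.

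Other probes at the top of the scale were set beside SLC25A4, a comparison chosen after the SLC25A4 values had been seen. Of 232 other probes with a mean of at least 15.25, the lowest SLC25A4 value, 26 had the signs of SLC25A4 in all 6 pairs, 11.2% of them, and 29 had the opposite sign in all 6 pairs, 12.5% of them. Among all probes these shares were 1.52% and 1.11%. The median correlation of the 232 probes with SLC25A4 over the 12 arrays was -0.26. Of the 232 probes 22 have a name, and some genes have several of them. The shares thus count probes and not separate transcripts. The 232 probes share the arrays and the top of the scale, and what links them was not tested. Of the 232 probes, 45.3% had a higher mean in IUGR.

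HBB2, a beta chain of haemoglobin, was measured at the top of the scale by 1 probe and well below it by another. Its brighter probe, at 15.26 to 15.78, followed SLC25A4, with 0.35 in pair 1, -0.35 in pair 2, 0.37 in pair 3, 0.33 in pair 4, 0.13 in pair 5 and -0.09 in pair 6. Its dimmer probe, at 9.80 to 11.89, was higher in IUGR in 6 of 6 pairs, with 1.26 in pair 2 and 0.47 in pair 6 (mean 0.53 ± 0.39, limma adjusted p = 0.982). In pairs 2 and 6 the probes of this gene thus pointed in opposite directions. Of the 22 other named probes at the top of the scale, the brighter HBB2 probe had the highest correlation with SLC25A4 (0.86). The PTGER2 probe came next (0.81), with 0.01 in pair 2. The lowest correlation was -0.92, for a probe annotated TPT1 on the array. HBA, another haemoglobin gene, had 2 bright probes, A_04_P002986 and A_04_P003481, with means of 14.61 and 14.58. Unlike SLC25A4, they were higher in IUGR in pair 2 (0.91 and 0.96) and pair 6 (0.51 and 0.41). Beta globin genes resemble each other, and whether both probes bind the same transcript was not tested.

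**Figure D4:**
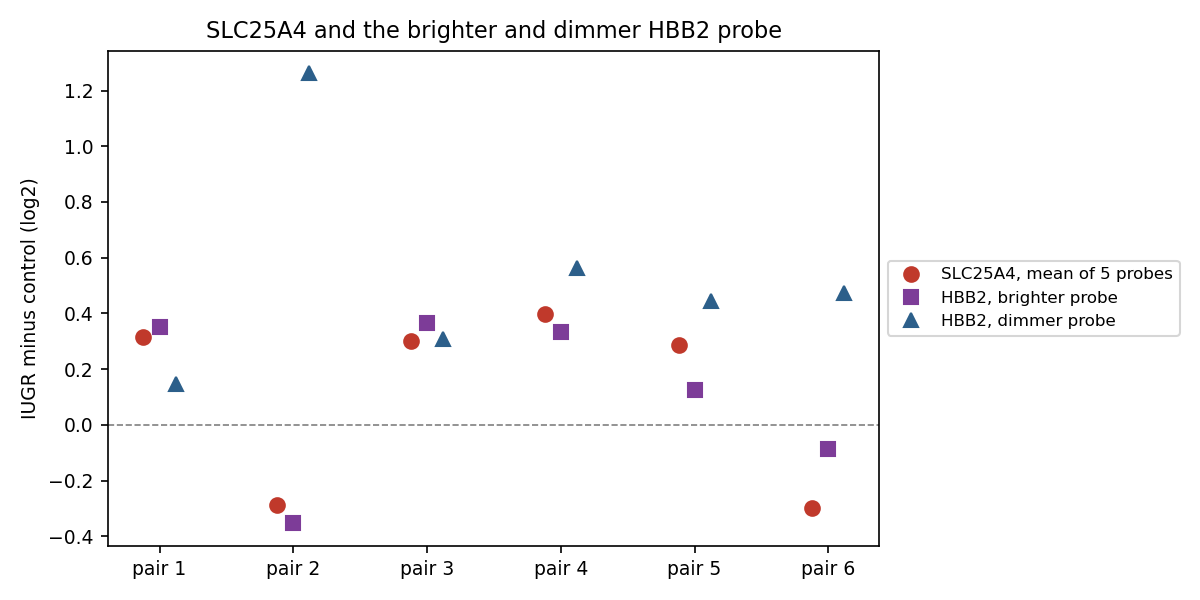
IUGR minus control difference (log2) in each pair for the mean of the 5 SLC25A4 probes (red circles), the brighter HBB2 probe (purple squares) and the dimmer HBB2 probe (blue triangles). The brighter HBB2 probe lies below 0 in pairs 2 and 6 like SLC25A4, while the dimmer one lies above 0 in every pair.

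Marker levels of other tissues were set beside these values, since control replicates 2 and 6 stood apart in SLC25A4. Of 8 fetal liver markers 5 were measured (AHSG, APOB, ITIH3, VTN and SERPINF2), and their mean level ran from 2.96 to 4.95 in IUGR and from 3.60 to 6.55 in control arrays. It stood at 4.91 in control replicate 2 and 6.55 in control replicate 6, against 3.60 to 4.10 in the other control arrays. The value in control replicate 2 rests largely on APOB, which differed by -5.91 in pair 2. In that pair AHSG, SERPINF2, ITIH3 and VTN differed by -2.48, -1.70, -0.25 and 0.63. AHSG stood at the 77.1 percentile of all probe means. APOB, ITIH3, VTN and SERPINF2 stood at the 18.9 to 44.1 percentile, so most of the liver mean rests on low signals. Among IUGR arrays, where SLC25A4 was low in replicates 2 and 6, the liver markers were lowest in replicate 2 (2.96) and highest in replicate 6 (4.95). Of 7 red cell markers HBA and BPGM were measured under these symbols, and their mean level ran from 12.99 to 13.99 in IUGR and from 12.54 to 13.59 in control arrays. It was lowest among controls in replicates 2 and 6 (12.54 and 12.75) and lowest among IUGR arrays in replicates 6 and 2 (12.99 and 13.12). HBB of that list now has the symbol HBB2 and is not in this mean. Its probes disagreed in pairs 2 and 6, with -0.35 and -0.09 for the brighter and 1.26 and 0.47 for the dimmer probe. Red cell markers were not the only ones to be lowest in these controls. The mean of the smooth muscle markers TAGLN and MYH11 was 5.71 and 5.82 there, against 5.84 to 6.30 in the other control arrays. That of the endothelial markers KDR and VWF was lowest among controls in replicate 2 (3.58) but not in replicate 6 (4.75). The skeletal muscle mean was lowest among controls in replicate 2 (9.26) and highest in replicate 6 (9.95). COL1A2, the measured fibroblast marker, was lowest in control replicate 6 (4.91). The atrial and leukocyte means were lowest in control replicate 5 (7.17 and 6.23). MYH11 and VWF also lay at low signal, at the 26.3 and 29.3 percentile of all probe means. TAGLN and MYH11 differed in opposite directions, by 0.50 and -0.55. The part of liver, blood or other tissue RNA in the SLC25A4 values was not tested.

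VDAC1, the most studied of the outer membrane channels and a docking site for hexokinase, had signals from 12.50 to 13.60 over its 5 probes. Its brightest probe, A_04_P001313, ran from 13.03 to 13.60 with a median of 13.27 in IUGR arrays. In control arrays it ran from 13.06 to 13.38 with a median of 13.34. The groups overlapped, and IUGR replicate 3 was the lowest and IUGR replicate 6 the highest of all 12 arrays. The mean difference was 0.02 ± 0.21, a 1.01-fold difference, with a 95% interval from -0.26 to 0.29 in limma and an exact p of 0.844. It turned below 0 without pair 1 (-0.0051), pair 2 (-0.014) or pair 6 (-0.025).

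The other VDAC1 probes gave larger mean differences with smaller SDs over the pairs. They were 0.06 ± 0.13, 0.10 ± 0.18, 0.11 ± 0.16 and 0.10 ± 0.15 for probes A_04_P001311, A_04_P001312, A_04_P001314 and A_04_P001315. The largest, for A_04_P001314, was higher in IUGR in 5 of 6 pairs, with an exact p of 0.156 and a 95% interval from -0.14 to 0.36. None of these differences passed the test. Averaged over its 5 probes, VDAC1 differed by 0.08 ± 0.16, with 0.13 in pair 1, 0.25 in pair 2, -0.18 in pair 3, -0.03 in pair 4, 0.09 in pair 5 and 0.21 in pair 6. The mean level was 13.09 ± 0.16 in IUGR and 13.02 ± 0.10 in control arrays (SD, n = 6 each). Between any 2 of its probes the signals correlated at 0.738 to 0.923 over the 12 arrays.

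VDAC2, the isoform known from mouse cells to hold the cell death protein BAK in check, was also close between the groups. Its brighter probe, A_04_P002292, ran from 13.80 to 14.38 with a median of 14.17 in IUGR arrays. In control arrays it ran from 13.98 to 14.09 with a median of 14.05. The control values lay inside the IUGR range, and the SD was 0.20 in IUGR against 0.04 in control arrays. The dimmer probe, A_04_P002291, had SDs of 0.15 and 0.12, and the difference in spread was not tested. The brighter probe differed by 0.09 ± 0.23, a 1.06-fold difference, with a 95% interval from -0.20 to 0.37 in limma and an exact p of 0.406. It was 0.02 without pair 5 and 0.16 without pair 3.

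The dimmer VDAC2 probe differed by 0.07 ± 0.25, with an exact p of 0.5. It ran from 13.32 to 13.70 in IUGR and from 13.27 to 13.57 in control arrays. It was 0.0042 without pair 5 and 0.012 without pair 2. Both probes were highest in pair 5, at 0.40 and 0.40, and lowest in pair 3, at -0.29 and -0.17. In pair 1 they disagreed, with 0.15 for the brighter and -0.11 for the dimmer probe.

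VDAC3, the least studied isoform, which mice need for normal sperm movement, stood at the 90.2 percentile of all probe means. Its only probe, A_04_P000741, ran from 10.29 to 10.73 with a median of 10.36 in IUGR arrays. In control arrays it ran from 9.92 to 10.88 with a median of 10.41. Control replicate 1 was the lowest and control replicate 2 the highest of all 12 arrays, so the IUGR values lay inside the control range. The difference of 0.04 ± 0.23 had a 95% interval from -0.24 to 0.32 in limma and an exact p of 0.75. VDAC3 was higher in IUGR in 2 of 6 pairs, by 0.43 in pair 1 and 0.22 in pair 6, and without pair 1 the difference turned to -0.037.

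The carrier and the channels differed in which pairs were higher in IUGR. Averaged over the probes of each gene, VDAC1 and VDAC2 had the same sign in 6 of 6 pairs, higher in IUGR in pairs 1, 2, 5 and 6 and lower in pairs 3 and 4. In 2 of these pairs an average lay near 0 and the probes of the gene disagreed in sign. VDAC2 differed by 0.02 in pair 1, with 0.15 and -0.11 for its probes. VDAC1 differed by -0.03 in pair 4, with -0.16 to 0.03 for its probes. SLC25A4 had the sign of VDAC1 in 2 of 6 pairs, namely pairs 1 and 5. In pair 2 SLC25A4 differed by -0.29 where VDAC1 and VDAC2 differed by 0.25 and 0.28. In pair 3 SLC25A4 differed by 0.30 where they differed by -0.18 and -0.23. VDAC3 shared the sign of VDAC1 in 4 of 6 pairs and that of SLC25A4 in 2 of 6. All these values come from the same 12 arrays, and with 6 pairs the agreement is a description.

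**Figure D5:**
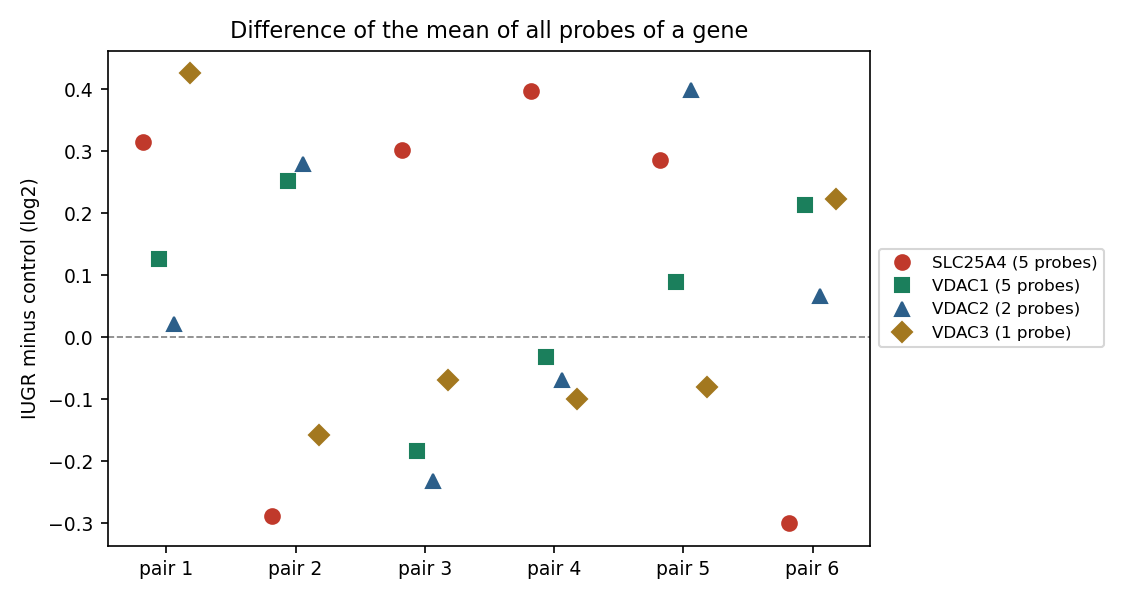
IUGR minus control difference (log2, averaged over the probes of each gene) in each of the 6 pairs for SLC25A4 (circles), VDAC1 (squares), VDAC2 (triangles) and VDAC3 (diamonds). VDAC1 and VDAC2 lie on the same side of 0 in every pair, and SLC25A4 lies on the other side in pairs 2, 3, 4 and 6. VDAC2 in pair 1 and VDAC1 in pair 4 lie close to 0.

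Of a list of 65 genes for mitochondrial nucleotide exchange, phosphate transfer and partners of VDAC, 6 had a named probe. Of these 4 were higher and 2 lower in IUGR, with a median of 0.03 against 0.01 over the 591 named genes, and 0 passed the test in either direction. SLC6A8, the creatine transporter, ran from 8.12 to 9.15 in IUGR and from 7.91 to 8.70 in control arrays. It differed by 0.42 ± 0.52, higher in 5 of 6 pairs (exact p = 0.0938, limma adjusted p = 0.982). Without pair 2, where it differed by 1.14, the difference was 0.27.

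CKM, the muscle creatine kinase, differed by -0.01 ± 0.16 (0.03 without pair 1), and at 15.44 to 15.80 it too lay at the top of the scale. In CKM the pair signs were opposite to those of SLC25A4 in pairs 1, 2, 3, 4 and 6. CKB, the brain-type creatine kinase, differed by 0.03 ± 0.33 with a sign that turned without pair 2 (-0.03) or pair 5 (-0.04). SLC25A24, a carrier that exchanges magnesium-bound ATP for phosphate, differed by -0.04 ± 0.36. Its probes stood under SLC25A23 in the array annotation and were renamed through their accession. ACTB, cytoplasmic actin, differed by 0.03 ± 0.25 (-0.02 without pair 5), and BCL2L1, a cell death inhibitor at a low level of 2.33 to 4.29, by 0.25 ± 1.14. BCL2L1 differed by -0.03 without pair 2.

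For each gene the 3 named genes most like it in the 6 pair differences were found from the brightest probes. Pair means and the mean group difference had been taken out of the 12 arrays first. For SLC25A4 they were TNFSF13 (Pearson r = 0.96), a cytokine of the TNF family, KCNC1 (0.92), a potassium channel, and HBB2 (0.92). TNFSF13 ran from 6.11 to 7.08 and KCNC1 from 3.09 to 5.51. For VDAC1 they were WNT5A (0.93), a signalling protein, CRYAB (0.92), the small heat shock protein abundant in heart muscle, and LOC100008771 (0.92). Their values ran from 2.27 to 4.29, from 13.84 to 14.54 and from 2.30 to 5.79. CRYAB differed by 0.15 ± 0.27, from -0.32 in pair 3 to 0.48 in pair 2.

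For VDAC2 the most similar genes were CRYGS (0.97), a crystallin, SLC2A5 (0.97), a fructose transporter, and ENO3 (0.97), the muscle enolase of glycolysis. ENO3 ran from 8.40 to 10.07 and differed by 0.40 ± 0.75, from -0.74 in pair 3 to 1.26 in pair 5, the pairs in which the brighter VDAC2 probe was lowest and highest too. For VDAC3 they were SLC36A1 (0.96), an amino acid transporter, TNFSF13B (0.94), a B cell survival factor, and LARK (0.93). These are the highest of 587 correlations each, over 6 pair differences, and several of the genes lay at low signal, so they are given as a description. Over the 12 arrays with nothing taken out, the correlations ran from -0.28 (TNFSF13B with VDAC3) to 0.83 (HBB2 with SLC25A4). For TNFSF13 with SLC25A4 and WNT5A with VDAC1 that correlation was 0.21 each.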

How the data were processed

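Total RNA of 12 ventricles, 500 ng each with RNA integrity numbers from 9.3 to 9.9, was labelled with Cy3, per the labels' protocols. The deposited values are log2 probe signals, which the authors processed with RMA per the submitters' processing notes, with no version given. Base 2 was inferred from the highest value (15.83). Sorted values of any 2 arrays differed by at most 0.13. The sources used here give neither the background method nor any filter on probes.

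Values were used as deposited, with no filter. Symbols of 1673 probes were updated through accessions, symbols or synonyms (1402, 238 and 33 probes) to the RefSeq annotation of rabbit assembly mOryCun1.1. The other 41930 probes are unnamed here, and coordinates are not given. A gene is represented by its brightest probe over all arrays, and every member probe is given.

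Groups were compared with limma 3.58.1 in R 4.3.3 (lmFit, eBayes, two-sided, 95% intervals) with pair as a fixed term. Adjusted p-values follow Benjamini and Hochberg over 43603 probes. Single probes were also tested by exact sign changes of the pairs, unadjusted. The labels and the design text give the pairs. Deviations from the group means correlated within pairs at 0.129 to 0.254, and all 12 arrays correlated best with their own partner in the other group. The labels do not say that samples came from separate litters, so how far the pairs behind each p-value are independent is not known here. For arrays their number limits the precision: the median standard error was 0.191, and 0.137 for probes above the median level. The fit was tested on simulated data. The members, the lists and the tests were chosen with earlier results of these data known. Genes named were the members, the measured genes of the 65-gene list and the 3 most similar named genes per member. HBB2, the HBA probes set beside it and the probes at the top of the scale were added after their values had been seen. Alternatives were the block, the prior, normalisation, a filter on dim probes, the mean of all probes, the exact test and leaving out each pair.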

Additional observations from a re-analysis of the deposited data

Results flagged for a closer look

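The 13 member probes and the 6 measured genes of the nucleotide exchange list were screened with Dixon's test for an array far from the other 5 of its group. Of 38 groups 1 had such an array, where chance gives about 1.9. SLC25A24 stood at 10.03 in IUGR replicate 2, with the other IUGR arrays from 10.58 to 10.75, and its difference turned from -0.04 to 0.07 without pair 2. No probe of SLC25A4, VDAC1, VDAC2 or VDAC3 had an array that far from its group. Dixon's test uses the gap between the extreme array and its nearest neighbour. Arrays that stand apart together, as replicates 2 and 6 did in SLC25A4, can thus pass unflagged.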

How the results depend on the processing

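Under each alternative limma called 0 of all probes at the adjusted threshold, members included (lowest adjusted p = 0.897). The 224 probes at an unadjusted p under 0.01 became 111 without the replicate block, 117 with an intensity trend and robust prior and 104 among probes above the median level, which leaves fewer to count. For the block and the prior, the cause was not tested. Without each pair in turn that count was 192 to 317. Leaving out 1 pair moved SLC25A4 from 0.05 to 0.23, VDAC1 from -0.025 to 0.085, VDAC2 from 0.022 to 0.16 and VDAC3 from -0.037 to 0.080. VDAC1 turned to -0.0051, -0.014 and -0.025 without pairs 1, 2 and 6, and VDAC3 to -0.037 without pair 1. With the mean of all its probes VDAC1 differed by 0.08. Leaving the replicate block out changed no call, and the signs of the 4 genes held under a random block, the trend, both rescalings and the filter. With the trend the standard error of SLC25A4 was 0.119 against 0.154, and that of VDAC1 0.0826 against 0.116. SLC25A4 lay at the top of the scale, and whether that affects its differences was not tested.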
